A study of Mus musculus with 6 samples.

Results

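Solute carriers are the membrane proteins that move sugars, amino acids, nucleosides, ions, metals and organic anions across membranes, and their genes are numbered by family (Slc1, Slc2 and so on, with the organic anion transporters as Slco). The genes described here were taken from the authors' deposited table by symbol: every Slc symbol with a family number followed by the letter a and a member number, and every Slco symbol, without the mitochondrial Slc25 carriers and without Slc13a3, Slc13a5, Slc40a1, Slc11a1 and Slc11a2. This gave 231 genes in 44 families, of 16138 genes in the table and 305 whose symbol starts with Slc. The rule itself uses no measured value, but it was set with earlier results of these data known.

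The samples were bone marrow-derived macrophages of 2 genotypes, 3 samples each. Control samples were Morrbidfl/fl, with a loxP-flanked gene for the long non-coding RNA Morrbid, and knockout samples, called cKO here, were Morrbidfl/fl/Lyz2-Cre, in which Cre from the Lyz2 locus removes the flanked sequence in myeloid cells. Both groups were grown for 7 days in medium with 50 ng/ml M-CSF, and both carried the flanked allele. Cre was carried by the cKO group alone, so its effects and those of Morrbid loss cannot be told apart. The labels give no age, sex or strain of the mice. Nor do they state that each sample is its own mouse, and the p-values may therefore rest on technical spread. The table gives 1 log2 fold change (cKO over control, called WT in its header), 1 p-value and 1 q-value per gene; values per library were not analysed here, depth is unknown, and levels cannot be compared between genes.

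A carrier's substrate is largely set by its family. Some carriers use the gradient of sodium, protons or chloride to load a substrate into the cell, some exchange one substrate for another, and some let it flow down its own gradient. In macrophages, carriers are known for the uptake of glucose and arginine after activation, for the export of lactate, for the sharing of metals with or their withholding from microbes, and for emptying the lysosome after ingested material has been digested. The rule goes by symbol, so it also took carriers of internal membranes: 17 members were listed for endosomes or lysosomes, 21 in the endoplasmic reticulum or Golgi, 8 in secretory or synaptic vesicles and 1 in mitochondria. Slc9a3r1, Slc9a3r2 and Slc7a6os, by symbol also members, encode scaffolds or an unrelated neighbour rather than carriers, as does Slc4a1ap, an adaptor noticed after the values were seen. The remaining members, 181 with Slc4a1ap among them, are those known from the plasma membrane or not listed elsewhere.

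Of the 231 members, 4 rose and 2 fell in cKO macrophages at a q under 0.05, and 225 did not pass. Those that rose were Slc31a2, Slc28a2, Slc7a7 and Slc12a7, and those that fell were Slco2b1 and Slco4a1. The 6 called members are 2.6% of the 231, beside 1.72% of all genes, so the share lies near that of the whole table when precision is left aside. By direction, 1.73% of members rose, beside 0.849% of all genes, and 0.866% fell, beside 0.874%. At an unadjusted p under 0.05 there were 18 members (7.79%), beside 8.84% of all genes. The median log2 fold change over members was -0.01, equal to the -0.01 over all genes at this rounding, with 120 members below 0 and 111 above. All 6 called members were among the 181, which make up most of the 231, so this count was not read as a trait of their site. The 181 include Slc31a2 and Slc2a6, whose proteins are known largely from endosomes or lysosomes but which were not on those lists; without this pair, 5 calls remain (3 higher, 2 lower).

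Precision differed widely between members. The implied standard error, worked out from each gene's log2 fold change and p-value, had a median of 0.335 over members and 0.185 over all genes, in log2 units. It was at most 0.25 for 105 members (45.5%, against 57.2% of all genes) and above 1 for 78 (33.8%, against 23.1%). Of those 105 members 4 rose and 1 fell, beside 110 and 90 of the 9234 genes in the table that were as precise. To pass, a gene with a standard error of 0.1 had to change by at least about 0.333 log2 units, one with 0.25 by 0.833 and one with 1 by 3.33. For 84 members the 95% interval of the log2 fold change lay within 0.5 of 0, and for 108 within 1. The most extreme ratios came from imprecise members: Slc12a1, the sodium, potassium and chloride importer of the kidney tubule, stood at -3.47 and Slc6a20b, of the family of sodium-coupled amino acid and neurotransmitter carriers, at 2.68 in the authors' deposited table, with standard errors of 2.66 and 2.01. The value of Slc12a1 was one shared with another gene. For 41 members (17.7%, against 12.5% of all genes) the log2 fold change and p-value were the same to every deposited digit as those of another gene, 12 of them at -0.98 and 7 at 0.94. A shared value is given below for completeness and was not read as a measurement of its own gene.

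**Figure D1:**
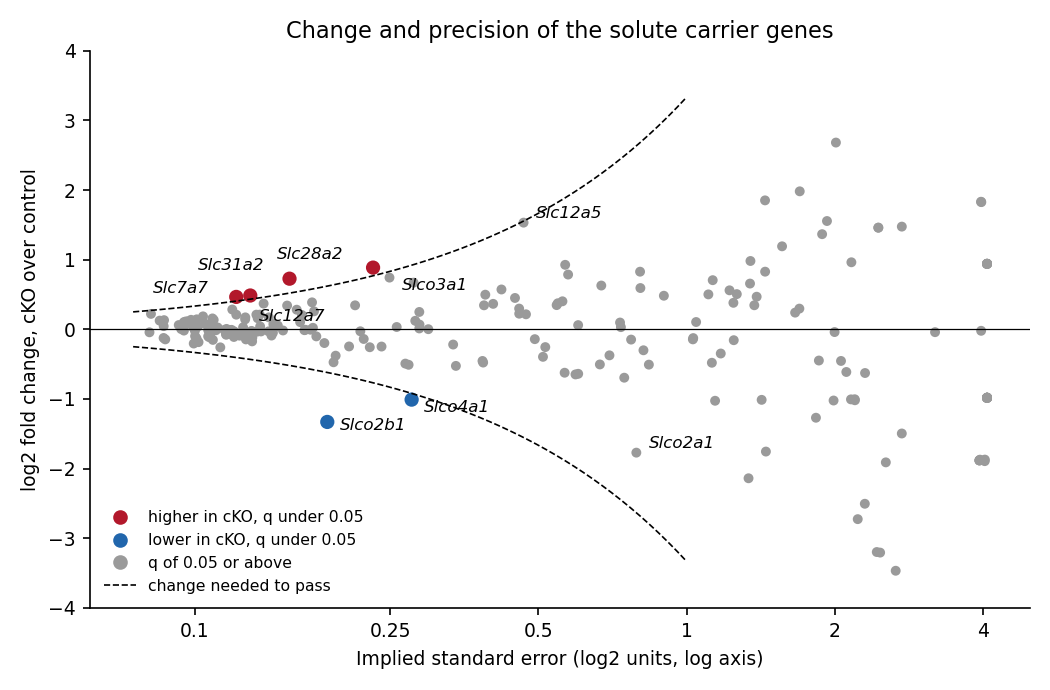
Each of the 231 solute carrier genes is a point, with its implied standard error in log2 units on a log axis and its log2 fold change of cKO over control on the vertical axis. Dashed lines mark the change needed to pass at each standard error; 4 genes lie above the upper line and 2 below the lower, Slc12a5 lies just inside, and no gene with a standard error above 1 passed.

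The organic anion transporters of the Slco family held both decreases. These proteins take up large amphipathic anions without sodium, among them conjugated steroids, thyroid hormones, prostaglandins and many drugs. Slco2b1 (Gene ID 101488), which carries steroid sulfates and statins, fell in cKO by 1.33 on the log2 scale with q = 1.56e-09 in the authors' deposited table. The level in cKO was 0.398 times that in control, with a 95% interval of the log2 fold change from -1.70 to -0.97. Slco4a1 (Gene ID 108115), a carrier of thyroid hormones and prostaglandins, fell by 1.01 with q = 0.0202 in the authors' deposited table, which is 0.497 times the control level (interval -1.55 to -0.47). Its call does not hold at a q under 0.01, whereas that of Slco2b1 does.

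The other Slco members did not pass and did not share a direction. Slco3a1, another carrier of prostaglandins and thyroid hormones, stood at 0.74 in the authors' deposited table, with q = 0.113. Its interval ran from 0.25 to 1.23. Slco2a1, the prostaglandin uptake carrier, had the lowest ratio of the family, -1.77, but its q was 0.400 in the authors' deposited table, and its interval ran from -3.32 to -0.22. Slco1a6 stood at -0.26 and Slco4c1 at 0.51 in the authors' deposited table, each with an interval that spans 0. Slco5a1, named here only to complete the family, stood at 1.19 in the authors' deposited table with a standard error of 1.56. Of 7 Slco genes, then, 2 fell and 5 did not pass, and the family median was -0.26. Markers of fibroblasts and other stromal cells were lower beside these decreases: all 19 measured markers had ratios below 0 (from -2.48 to -0.30, median -1.68), 2 of them passed, and 16 had an unadjusted p under 0.05. Their part in the Slco values was not tested. In these bulk samples, fewer cells of a type and less RNA per cell cannot be told apart.

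The bases before the starts of the 2 genes that fell are shown because they are the members of one family that moved the same way. Each run is the 250 bases before the most upstream RefSeq start, in build GRCm38.p6, on the strand of the gene; the table's own build, mm9, differs, so these positions serve the sequences only. Slco2b1 lies on the minus strand (chr7:99711341-99711590) and Slco4a1 on the plus strand (chr2:180455995-180456244). Capitals mark matches on either strand to 5 motifs: GAGGAA, the core of sites of the myeloid factor PU.1; TGANTCA, of AP-1; CACGTG, an E-box bound by MITF and TFE factors; TGACNNNGC, the antioxidant response element; and TGCNCNC, the core of the metal response element.
Slco2b1: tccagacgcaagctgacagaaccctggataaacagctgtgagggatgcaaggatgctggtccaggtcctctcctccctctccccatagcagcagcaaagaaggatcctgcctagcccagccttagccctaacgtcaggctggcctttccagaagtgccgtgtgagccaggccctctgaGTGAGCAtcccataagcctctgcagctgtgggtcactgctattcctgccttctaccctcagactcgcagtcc
Slco4a1: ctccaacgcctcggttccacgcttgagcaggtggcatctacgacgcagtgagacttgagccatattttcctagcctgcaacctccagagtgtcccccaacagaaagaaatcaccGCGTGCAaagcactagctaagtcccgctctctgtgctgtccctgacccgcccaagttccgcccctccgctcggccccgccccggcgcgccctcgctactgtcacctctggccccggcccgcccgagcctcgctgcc
Each had 1 match to TGCNCNC and no match to the other 4 motifs. Of 27025 promoters of this length 43.8% hold TGCNCNC, as do 51.1% of those of genes in the table and 48.6% of those of members. A match describes letters and not a bound site. RefSeq promoters were found for 177 of the 231 members.

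Among metal carriers, the copper gene Slc31a2 rose and its close relative did not pass. Slc31a2 (Gene ID 20530) encodes CTR2, a low-affinity copper transporter found largely in endosomes and lysosomes, which also affects how CTR1 is processed. It rose by 0.73 on the log2 scale with q = 0.00074 in the authors' deposited table, 1.65 times the control level (interval 0.42 to 1.03). Slc31a1, the high-affinity copper importer CTR1, stood at 0.07 in the authors' deposited table, with q = 0.993 and an interval from -0.21 to 0.36. The intervals of the 2 genes do not overlap; the difference itself was not tested. In the RefSeq order along chromosome 4 the 2 genes are separated by 1 protein-coding gene, Fkbp15, which stood at 0.14 in the authors' deposited table, with q = 0.942.

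The bases before the starts of these neighbouring copper genes are shown because 1 of the pair rose. They are again the 250 bases before the start in GRCm38.p6, both on the plus strand (chr4:62286179-62286428 for Slc31a2 and chr4:62360451-62360700 for Slc31a1), with the same 5 motifs in capitals.
Slc31a2: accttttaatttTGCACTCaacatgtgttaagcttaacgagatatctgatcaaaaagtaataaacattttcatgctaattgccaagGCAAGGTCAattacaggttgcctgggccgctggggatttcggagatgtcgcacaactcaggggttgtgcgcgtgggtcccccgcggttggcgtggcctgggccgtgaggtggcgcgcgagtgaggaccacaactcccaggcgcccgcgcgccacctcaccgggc
Slc31a1: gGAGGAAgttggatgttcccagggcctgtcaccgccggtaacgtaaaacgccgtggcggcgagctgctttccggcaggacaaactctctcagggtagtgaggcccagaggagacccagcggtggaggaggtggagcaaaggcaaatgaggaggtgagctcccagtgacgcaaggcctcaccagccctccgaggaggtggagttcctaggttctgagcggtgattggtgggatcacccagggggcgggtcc
In this window Slc31a2 had 1 match to TGACNNNGC, held by 10.1% of the 27025 promoters, and 1 to TGCNCNC. Slc31a1 had 1 match to GAGGAA, held by 23.1%. Neither window, nor those of the Slco pair, had a match to TGANTCA (6.85% of promoters, 4.87% of those of genes in the table) or CACGTG (6.04% and 7.89%), and no matches overlapped.

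None of the zinc carriers passed. The Slc30 family moves zinc out of the cytosol and the Slc39 family into it; the class of zinc, copper and other metals held 25 members, of which Slc31a2 alone rose and 24 did not pass. Slc39a13, a zinc carrier of the secretory pathway needed in connective tissue, stood at 0.37 in the authors' deposited table, with q = 0.209. Its interval ran from 0.10 to 0.64. Slc39a8, an importer of zinc, manganese and cadmium, stood at -0.51 in the authors' deposited table, with q = 0.611, and Slc39a14, a related importer that also takes up iron, stood at 0.26 (q = 0.838). Slc30a1, the zinc exporter of the cell surface, stood at 0.21 in the authors' deposited table, with q = 0.695. The best measured of the class had narrow intervals: -0.29 to 0.05 for Slc30a7 and -0.12 to 0.21 for Slc39a7, both of the secretory pathway, and -0.18 to 0.19 for Slc30a9, a mitochondrial zinc carrier.

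A nucleoside carrier rose. Slc28a2 (Gene ID 269346) encodes CNT2, which uses sodium to concentrate adenosine and other purine nucleosides in the cell. It rose by 0.89 with q = 0.0111 in the authors' deposited table, 1.85 times the control level (interval 0.43 to 1.34). A gene with shared sequence complicates this value. Of the 50-base words of the longest coding Slc28a2 transcript in GENCODE M21, 39.6% also occur in transcripts of the neighbouring gene Gm14085, called Slc28a2b in RefSeq. Reads may therefore have been split between both genes. Gm14085 stood at 1.38 in the authors' deposited table, with q = 0.906 and a standard error of 1.04. No 50-base word of the other 5 called members was found in transcripts of another gene. Opposite strands were not searched. The next protein-coding gene on that side, Gatm, which makes guanidinoacetate for creatine synthesis, fell by 0.53 in the authors' deposited table (q = 0.0136).

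The other nucleoside carriers gave no call. Slc29a3, an equilibrative nucleoside carrier of the lysosome needed for normal macrophage homeostasis in mice, stood at -0.01 in the authors' deposited table, with an interval from -0.23 to 0.20. Slc28a3, the broad-specificity relative of Slc28a2, stood at -1.91 in the authors' deposited table, with a standard error of 2.54 and the same values as another gene. In the class of nucleosides and nucleotide sugars, 1 of 10 members rose and 9 did not pass. Its best measured members were the Golgi carriers of family 35, with intervals from -0.04 to 0.29 for Slc35a4, from -0.30 to 0.10 for Slc35a5 and from -0.06 to 0.37 for Slc35a3.

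**Figure D2:**
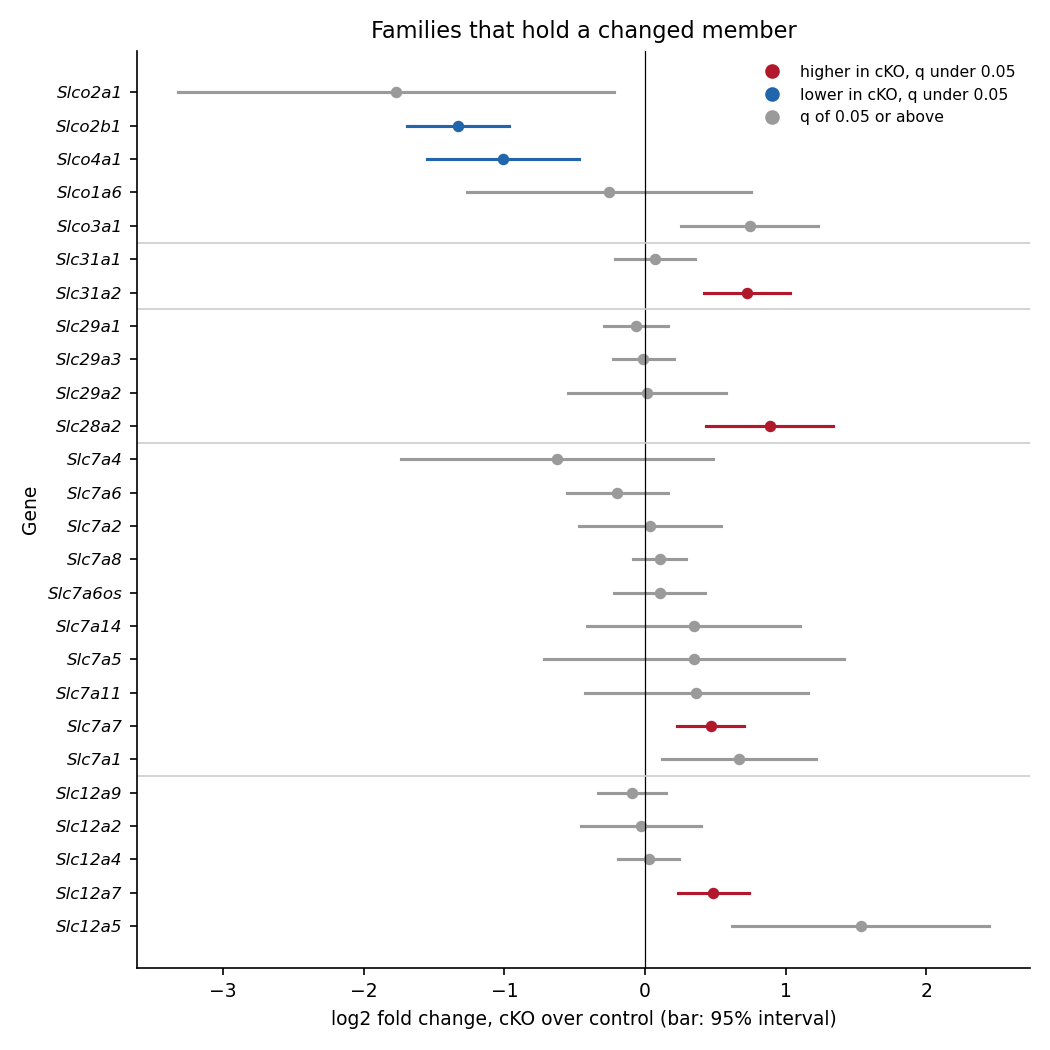
Log2 fold changes of cKO over control with 95% intervals are drawn for 26 members of the families that hold a changed gene (Slco, Slc31, Slc28 with Slc29, Slc7 and Slc12), leaving out members with an implied standard error above 1 and a gene not reported here. In each family the changed genes stand beside relatives that did not pass, such as Slc31a2 at 0.73 beside Slc31a1 at 0.07 in the authors' deposited table.

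The class of amino acids and neurotransmitters, set by family number, was the largest, with 53 members. The non-carrier Slc7a6os was among them. In this class 1 rose and 52 did not pass. Slc7a7 (Gene ID 20540) encodes y+LAT1, which exports arginine and lysine in exchange for neutral amino acids and sodium, and loss of which causes lysinuric protein intolerance in humans. It rose by 0.47 with q = 0.0116 in the authors' deposited table, 1.38 times the control level (interval 0.23 to 0.70). Its gene overlaps Oxa1l, a mitochondrial insertase gene, in RefSeq, and none of the sources used here says whether counting used strand. Oxa1l stood at -0.05 in the authors' deposited table, with q = 0.993. The second protein-coding gene on the other side is Mmp14, a membrane-bound protease gene, which was higher at 0.76 in the authors' deposited table, with q = 0.00127. The 2 protein-coding neighbours on each side of the 6 called members and of Slc12a5 were looked up, and 22 were in the table. Of these 2 passed, Gatm beside Slc28a2 and Mmp14 beside Slc7a7, and none beside Slco2b1, Slco4a1, Slc31a2, Slc12a7 or Slc12a5. Over all genes 1.72% passed. Whether neighbours of called members pass more often was not tested.

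Partners and relatives of Slc7a7 did not pass. Slc3a2 encodes the heavy chain that carries y+LAT1, LAT1 and other light chains to the cell surface. It stood at 0.13 in the authors' deposited table, with q = 0.818 and an interval from -0.04 to 0.30. Slc7a6, which encodes the close relative y+LAT2, stood at -0.20 in the authors' deposited table, and its interval (-0.56 to 0.16) does not overlap that of Slc7a7, though the difference was not tested. Slc7a8, another light chain, stood at 0.10 (interval -0.08 to 0.29) in the authors' deposited table. Of the arginine importers, Slc7a1 stood at 0.67 in the authors' deposited table, with q = 0.319 and an interval from 0.12 to 1.22. Slc7a2, which supplies arginine to activated macrophages, stood at 0.03 (interval -0.47 to 0.54) in the authors' deposited table. Slc7a11, the cystine and glutamate exchanger, stood at 0.37 and Slc7a5, the importer of large neutral amino acids, at 0.35 in the authors' deposited table. Their intervals, -0.43 to 1.16 and -0.72 to 1.41, leave room for changes of either sign.

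No carrier of glutamine and other neutral amino acids passed, and their precision varied. Slc38a2, a sodium-coupled importer induced by amino acid shortage, stood at -0.14 in the authors' deposited table, with q = 0.731 and an interval from -0.32 to 0.03. Slc1a5, a glutamine exchanger, had an interval from -0.30 to 0.19, and Slc38a10, of the glutamine carrier family, one from -0.20 to 0.12. Slc1a4, a carrier of alanine and serine, stood at -0.14 in the authors' deposited table with a wider interval, from -1.11 to 0.82. Slc1a3, a glutamate importer, stood at -0.61 in the authors' deposited table, but with a standard error of 2.11 and the same values as another gene. Of 9 carriers that the stress factor ATF4 is known to induce, none passed (median -0.05), and of 12 other ATF4-linked genes, such as Asns and Trib3, none passed either (median 0.18); at an unadjusted p under 0.05 there was 1 in each list.

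Of the chloride-coupled carriers, Slc12a7 rose. Slc12a7 (Gene ID 20499) encodes KCC4, which moves potassium and chloride out of the cell together and takes part in volume regulation. It rose by 0.49 with q = 0.0154 in the authors' deposited table, 1.40 times the control level (interval 0.23 to 0.74). Slc12a5, which encodes KCC2, the related exporter known from neurons, was the member nearest to the threshold from above, at 1.53 in the authors' deposited table, with q = 0.0557 and an interval from 0.62 to 2.45. When p-values were adjusted only over the genes of better precision, with standard errors up to 1, Slc12a5 passed, with an adjusted p of 0.0428 by the Benjamini-Hochberg method. The gene beside it in RefSeq is Mmp9, which stood at 1.10 in the authors' deposited table, with q = 0.530. Slc12a4, which encodes the related exporter KCC1, had an interval from -0.19 to 0.24, which overlaps that of Slc12a7 and not that of Slc12a5, again with no test of the difference. Slc12a2, which encodes the importer NKCC1, stood at -0.03 (interval -0.45 to 0.40) in the authors' deposited table, and Slc12a9 at -0.09.

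The remaining carriers of bicarbonate, protons and other ions did not pass. The class held 36 members, of which Slc12a7 rose and 35 did not pass. Slc4a2, a chloride and bicarbonate exchanger, stood at 0.14 in the authors' deposited table (interval -0.06 to 0.33). Slc9a3r1, the scaffold rather than a carrier, stood at 0.04 (interval -0.16 to 0.24) in the authors' deposited table. Slc41a3, a magnesium carrier, stood at -0.47 in the authors' deposited table, with q = 0.288 and an interval from -0.85 to -0.10. Phosphate carriers gave 0.14 for Slc20a1 and -0.04 for Slc20a2, and the urea carrier Slc14a1 gave -0.53, in the authors' deposited table; none of the 4 members that carry phosphate or urea passed. Of the 9 members of the class of dicarboxylates and sulfate, set by family number, none passed. The sulfate carriers Slc26a2, Slc26a6 and Slc26a11 stood at 0.39 (q = 0.405, interval 0.05 to 0.73), 0.28 and -0.18 in the authors' deposited table.

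Carriers of the main fuels did not pass, and their intervals differed in width. Slc2a1, the glucose importer GLUT1, stood at -0.11 in the authors' deposited table, with q = 0.993 and an interval from -0.35 to 0.13. Slc2a3, the high-affinity importer GLUT3, stood at -0.01 (interval -0.34 to 0.32), and Slc2a6, a lysosomal relative found in activated macrophages, at 0.45 (interval -0.43 to 1.33), in the authors' deposited table. Slc2a8 and Slc50a1, further sugar carriers, had intervals from -0.29 to 0.13 and from -0.06 to 0.34. Slc37a2, a sugar phosphate exchanger abundant in macrophages, stood at -0.02 (interval -0.21 to 0.17) in the authors' deposited table. Like the other classes, that of sugars and sugar phosphates was set by family number. It therefore includes Slc5 members known for other substrates, such as Slc5a5 (iodide), Slc5a6 (vitamins) and Slc5a12 (lactate). None of its 25 members passed, and none had an unadjusted p under 0.05. The lactate carriers gave -0.25 for Slc16a1 (MCT1, interval -0.72 to 0.22) and 0.02 for Slc16a3 (MCT4, interval -0.32 to 0.36) in the authors' deposited table. Bsg, a chaperone that takes both to the cell surface, stood at -0.06 in the authors' deposited table, with q = 0.993.

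The class that holds the Slco genes also takes in monocarboxylate, bile acid and organic cation carriers, 42 members in all. Its 2 calls were the Slco decreases, and 40 members did not pass. Besides the Slco genes its best measured members were Slc16a10, an aromatic amino acid carrier (interval -0.22 to 0.17), Slc17a5, the lysosomal exporter of sialic acid (-0.33 to 0.07), and Slc10a7, a relative of the bile acid carriers (-0.22 to 0.20).

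Carriers of vitamins, lipids and heme did not pass. Slc27a1, a fatty acid uptake protein and the best measured of this class, stood at 0.22 in the authors' deposited table, with q = 0.195 and an interval from 0.06 to 0.38, and its relative Slc27a4 at -0.10 (interval -0.31 to 0.11). Slc23a2, the ascorbate importer, stood at 0.28 in the authors' deposited table, with q = 0.328 and an interval from 0.05 to 0.52. Slc46a1, a carrier of folate and heme, stood at 0.17, Slc48a1, which moves heme out of the phagolysosome, at 0.03, and Slc44a1, a choline carrier, at -0.09, in the authors' deposited table. None of the 22 members passed, and 2 had an unadjusted p under 0.05. Nor did any of the 5 peptide carriers. Slc15a3 and Slc15a4, which move histidine and bacterial peptides out of the endolysosome, stood at 0.34 (q = 0.418) and -0.03 in the authors' deposited table. The interval of Slc15a3 ran from 0.04 to 0.64. Slc15a2, a peptide importer of the cell surface, stood at 0.30 in the authors' deposited table, with an interval from -0.60 to 1.19.

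**Figure D3:**
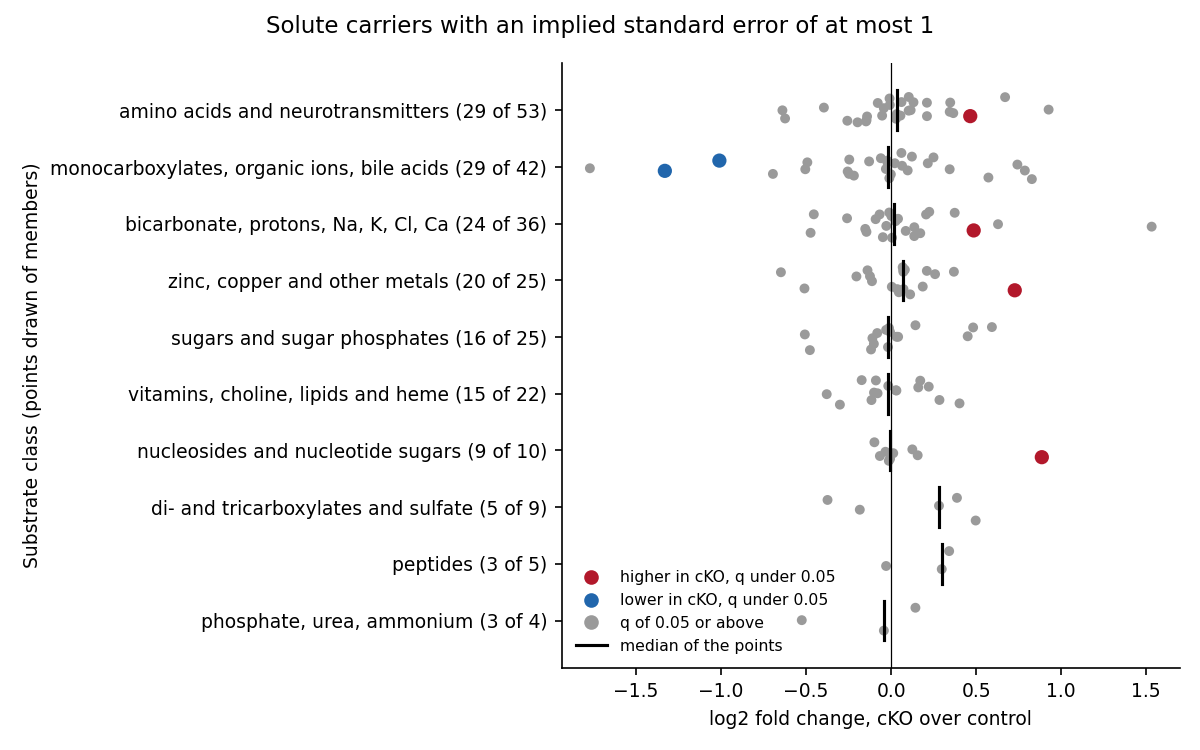
Each point is 1 of the 153 solute carrier genes whose implied standard error was at most 1, placed by its log2 fold change of cKO over control, with a row for each substrate class and the number drawn of all members in brackets. Called genes occur in 5 classes, and the black bars, the medians of the drawn points, lie near 0 except in the 2 classes of peptides and of dicarboxylates and sulfate, which hold 3 and 5 points.

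Precision also differed by site. The median standard error was 0.109 for the 21 members of the endoplasmic reticulum and Golgi and 0.125 for the 17 of endosomes and lysosomes, against 0.559 for the 181 of the plasma membrane or not listed elsewhere. None of the first 2 groups passed, but 1.72% of all genes did, and groups of 21 and 17 are too small to differ from that share by having none. Their ratios had medians of -0.01 and -0.03, and 20 of the 21 and 12 of the 17 had intervals within 0.5 of 0. None of the 8 vesicle carriers passed, with a median standard error of 0.881. The median of the 181 others was -0.00189.

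**Figure D4:**
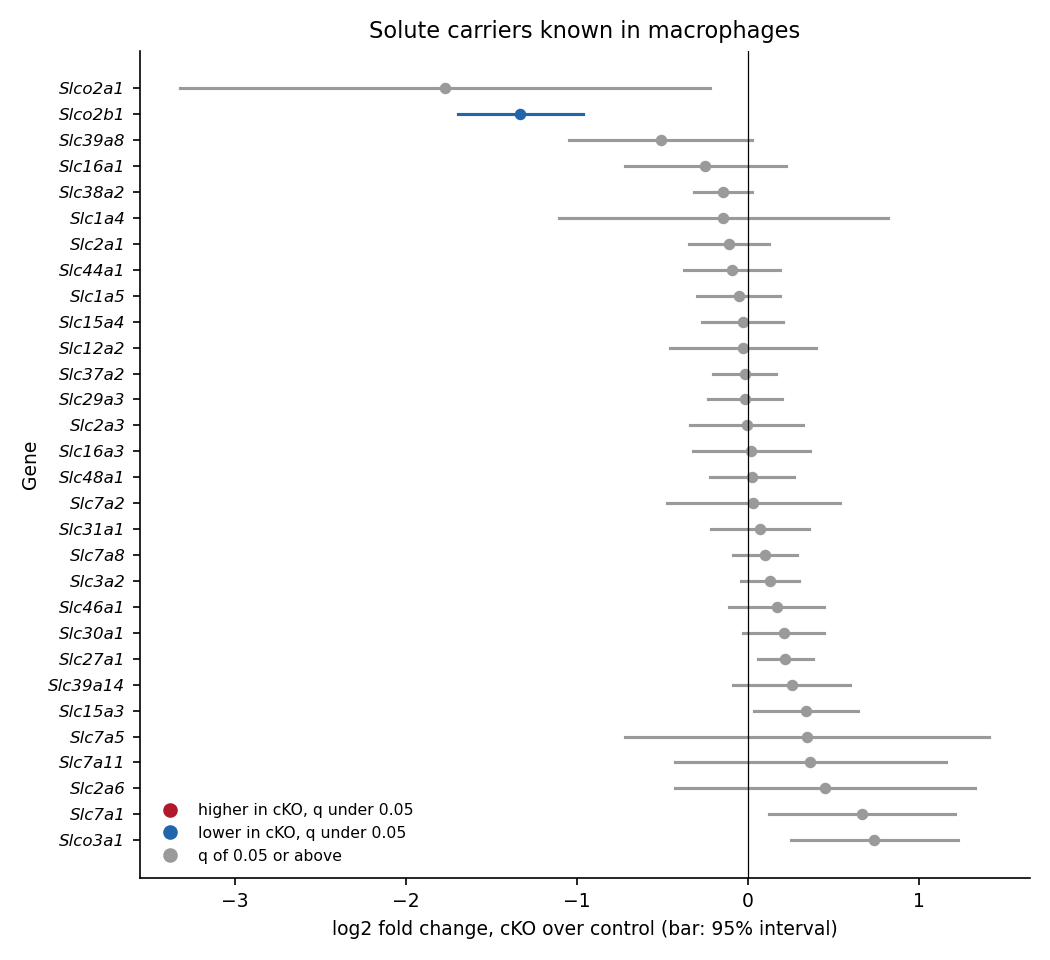
Log2 fold changes of cKO over control with 95% intervals are drawn for 30 of 32 carriers listed as known in macrophages, leaving out Slc1a3, whose implied standard error is 2.11, and a gene not reported here. Slco2b1, at -1.33 in the authors' deposited table, is the single gene of the list with a q under 0.05, and the intervals of Slc37a2 (-0.21 to 0.17), Slc29a3 (-0.23 to 0.20) and Slc1a5 (-0.30 to 0.19) are among the narrow ones.

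Genes that drive or regulate the carriers were looked at as a separate list of sodium and potassium pump subunits, chaperones and kinases. None of the 30 measured passed (median -0.09), and 3 had an unadjusted p under 0.05. Atp1b3, a subunit of the pump that maintains the sodium gradient, stood at -0.11 in the authors' deposited table. Wnk1, a kinase that acts on the Slc12 carriers through Oxsr1, stood at 0.26 in the authors' deposited table, with q = 0.147, and Oxsr1 itself at 0.18 with q = 0.658. Emb, a second chaperone of the lactate carriers, stood at -0.57 in the authors' deposited table, with q = 0.243.

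The labelled cell type could not be checked from ratios, which show no levels. The 9 macrophage markers listed were all in the table with standard errors of at most 0.25; Lyz2, whose locus carries Cre, fell by 0.85 (q = 4.6e-06) in the authors' deposited table, Adgre1 rose by 0.44 (q = 0.0104) and 7 others did not pass. Whether markers of other cell types were at 0 was not analysed here. Of those lists, the 5 endothelial markers had a median of 0.60, with 3 above 0 and 2 below, and 1 passed (Pecam1, higher). Tek and Emcn of this list had standard errors of 3.95 and 2.15. None of 8 neutrophil (median -0.21), 5 lymphocyte (-0.03) and 3 erythroid (-0.44) markers passed. All 8 neutrophil ratios were below 0, from -0.85 to -0.11. All 5 lymphocyte and all 3 erythroid markers had standard errors above 1, so a change of over 3.33 log2 units was needed to pass. The part of these lists in the carrier values was not tested. The transcript of Morrbid itself was not analysed here.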

How the data were processed

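RNA of 6 samples, 3 control and 3 cKO, was compared by the authors, who deposited for each gene a log2 fold change with its p-value and q-value, per the file headers. Bowtie2, RSEM 1.3.1, DESeq2 1.4.5 and build mm9 are named in the submitters' processing notes without role or order; filters, library scaling and strand are not given in the sources used here. WT in the header was taken as the control group. Benjamini-Hochberg values recomputed from the deposited p-values over all genes differed from the deposited q-values by a relative 0.00591 at most.

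A gene was called at a deposited q under 0.05. The implied standard error is the absolute log2 fold change divided by the normal quantile of its two-sided p, which assumes a Wald-type test. It was used because depth is unknown, and it does not separate depth from the spread between samples. The 95% intervals rest on it. Planned fits on values per library were replaced by the deposited statistics. The steps were run on simulated ratios drawn with these same implied standard errors. Such a run checks the arithmetic and cannot test the Wald assumption or the spread between samples. Members, families, gene lists and motifs were chosen with earlier results of these data known. Genes were named by rule: every called member, the 5 nearest above the threshold, the 3 best measured of each substrate class, 32 preset macrophage carriers, and up to 4 relatives of each called member. Slco5a1, Slc12a1, Slc6a20b and Slc4a1ap, neighbouring genes, and single genes of the other lists were added after their values were seen. Some genes that the rule also picked are not reported here. Of the lists, 30 of 33 partner genes were measured. All 231 Gene IDs were found in RefSeq for GRCm38.p6, used for neighbours and promoters. Tools were Python 3.11.15, SciPy 1.17.1, NumPy 2.4.6, pandas 2.3.3 and, for figures, matplotlib 3.10.9.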

Additional observations from a re-analysis of the deposited data

How the results depend on the processing

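The count of 6 called members (4 higher, 2 lower) was the same with Benjamini-Hochberg values recomputed over all genes or over mRNA genes. It was also the same among the 181 members of the plasma membrane or not listed elsewhere, with or without Slc4a1ap. Without Slc31a2 and Slc2a6, known largely from endosomes or lysosomes, that group had 5 (3 higher, 2 lower). Adjusted only over genes whose implied standard error was at most 1, the count over all members was 7 (5 higher, 2 lower), with Slc12a5 added. At a q under 0.01 it was 2 (1 higher, Slc31a2, and 1 lower, Slco2b1). When a change of at least 1 log2 unit was also asked for it was 2 (0 higher, 2 lower), and with a Holm adjustment 1 (0 higher, 1 lower, Slco2b1; Slc31a2 had an adjusted p of 0.0508); these 3 are stricter by construction. At an unadjusted p under 0.05, an alternative chosen after seeing the data like the omissions of Slc4a1ap and of that pair, it was 18 (12 higher, 6 lower). The median over members was -0.01 in all and 0.01 with a standard error of at most 1. For those of the plasma membrane or not listed elsewhere it was -0.00189. No paired analysis was possible because each gene has a single ratio in the table, without values of the libraries. Planned refits with other scalings and filters, or without a replicate, were likewise not run, so whether 1 library decides a call is unknown here. Members with a standard error above 1, 78 of 231, would have needed a change of over 3.33 log2 units to pass.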
